A study of Mus musculus with 12 samples.

Results

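The effect of the senolytic drug ganciclovir (GCV) was examined in retinas that had been through a pressure injury. Of the 12 libraries of the series, 6 were from IOP‐treated retinas, and these were all the members. The IOP‐GCV group held the treated eyes of mice 1, 2 and 5, and the IOP group those of mice 3, 4 and 6, so that each group had 3 retinas and no mouse was in both. All 6 animals were p16‐3MR transgenic mice of 12 to 16 weeks. In each of them the intraocular pressure (IOP) of one eye had been held at 85 to 90 mm Hg for 60 min by infusing salt solution into the anterior chamber. Mice of the GCV group then received 25 mg/kg into the peritoneum once a day in 3 daily injections, mice of the other group were sham‐treated with PBS, and retinas were collected at the end of this course for RNA sequencing. The other eye of every mouse was its control, and these 6 retinas formed the groups ctrl and ctrl‐GCV. Whole retina was sequenced, so fewer cells of a type and less RNA per cell cannot be told apart in any value given here. No library came from mice without the transgene, and effects of GCV that do not need the transgene cannot be told apart from those that do.

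Cells that have entered senescence stop dividing for good, often with a high level of the cell cycle inhibitor p16Ink4a, and release cytokines, chemokines, growth factors and proteases that are called the senescence‐associated secretory phenotype (SASP). In p16‐3MR mice the regulatory region of the p16Ink4a gene drives a fusion of Renilla luciferase, a red fluorescent protein and the thymidine kinase of herpes simplex virus. The kinase starts the conversion of GCV into a compound that ends growing DNA chains, which kills cells that make the fusion protein. Retinal ganglion cells, whose axons form the optic nerve, are the neurons lost in glaucoma and after a rise of IOP. The transgene has no row in the table, so its expression could not be followed in any library.

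Cdkn2a, the gene that holds p16Ink4a, has a pair of start sites on mouse chromosome 4, on the minus strand. The upstream start gives p19Arf, a protein that stabilises p53, and the downstream start gives p16Ink4a. The table has 1 row for both, so the transcripts cannot be separated. The 250 bases before each start are shown because the p16Ink4a region is the one that drives the transgene. They are from RefSeq (GRCm38), chr4:89282193-89282442 for p16Ink4a and chr4:89294620-89294869 for p19Arf, and capitals mark the GC box GGGCGG, searched as GGGCGG and CCGCCC on both strands.
p16Ink4a: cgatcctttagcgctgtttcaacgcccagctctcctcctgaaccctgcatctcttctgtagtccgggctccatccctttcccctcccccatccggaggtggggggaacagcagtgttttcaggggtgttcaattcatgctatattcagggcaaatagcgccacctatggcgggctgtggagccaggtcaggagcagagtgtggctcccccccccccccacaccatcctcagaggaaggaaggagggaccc
p19Arf: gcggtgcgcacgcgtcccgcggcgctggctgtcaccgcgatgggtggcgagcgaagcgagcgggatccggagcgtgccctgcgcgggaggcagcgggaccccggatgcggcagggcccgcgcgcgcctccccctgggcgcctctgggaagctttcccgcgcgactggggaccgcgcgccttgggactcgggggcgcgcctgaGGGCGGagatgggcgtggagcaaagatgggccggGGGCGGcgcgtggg
The p19Arf window held 2 GC boxes and the p16Ink4a window 0. In all, 32.7% of 32851 promoter windows of the same length held at least 1. A match is a description of letters, and 0 matches says nothing on which factors bind there.

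Some injured retinas stood apart in ways that the groups do not describe. Estimated depth was 3970000 fragments in IOP mouse 6 and between 6800000 and 8790000 in the other 5 libraries. Skeletal muscle transcripts were present in 2 libraries, with Ckm (muscle creatine kinase) at 438 FPKM in IOP mouse 3 and 31.3 FPKM in IOP‐GCV mouse 5, against 0 to 0.366 FPKM in the other 4. FPKM stands for fragments per kilobase of transcript, scaled to the size of the library. In counts of genes, a higher or lower mean with GCV is that of log2(FPKM + 1), which can differ in direction from the mean in FPKM. The 12 muscle genes summed to 4477 and 516.4 FPKM in these 2 libraries and to 26.0 to 49.14 FPKM in the other 4, and all 12 had a lower mean with GCV, with a median log2 difference of -1.16 that was 1.37 without IOP mouse 3. IOP mouse 3 had the lowest lens signal, with Cryaa (alpha A crystallin) at 32.6 FPKM against 1350 to 2700 FPKM in the other 5. It also had the highest sum of the list for retinal pigment epithelium, 529.8 FPKM against 101.8 to 341.0 FPKM. IOP‐GCV mouse 5 had the highest Saa3 (serum amyloid A, an acute‐phase protein), with 4170 FPKM against 17.4 to 224 FPKM. Xist, transcribed from the inactive X chromosome, was at 31.7 FPKM in IOP mouse 6 and 45.6 FPKM in IOP‐GCV mouse 5, and at most 0.0523 FPKM in the other 4. The labels do not give the sex, and both groups held 1 such library. Counts of genes without these libraries, with library weights and with Xist as a term are given under the processing alternatives, and the part of these differences in each result below was not tested otherwise.

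**Figure D1:**
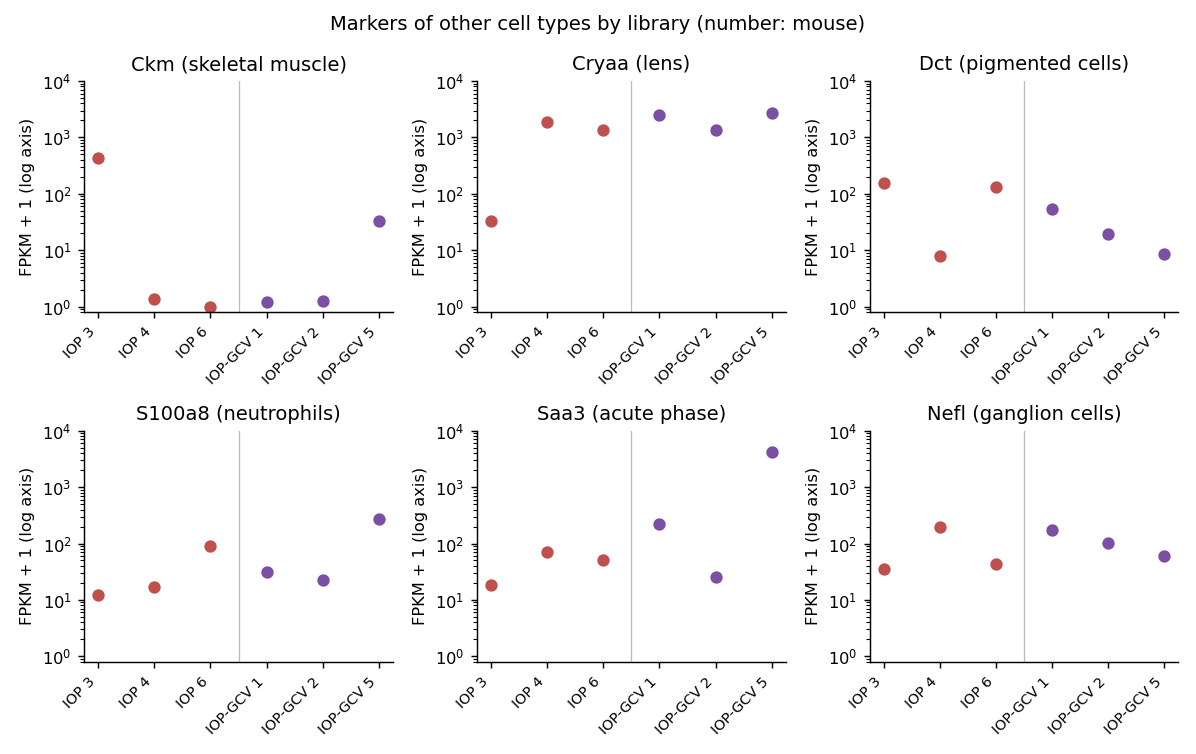
Level of 6 marker genes in the 6 IOP‐treated retinas, as FPKM + 1 on a log axis; each point is 1 library, red for IOP and purple for IOP‐GCV, with the mouse number. Ckm stands out in IOP mouse 3 (438 FPKM) and IOP‐GCV mouse 5 (31.3 FPKM), Cryaa is low in IOP mouse 3 (32.6 FPKM), and Saa3 and S100a8 are highest in IOP‐GCV mouse 5.

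The first comparison asked which genes differed between injured retinas with and without GCV. No gene of 18013 tested passed an adjusted p of 0.05 in limma on log2(FPKM + 1), which is 0.0% of them, and the smallest adjusted p was 0.988. At an unadjusted p under 0.05 there were 214 genes, or 1.19%, of which 121 had a higher and 93 a lower mean with GCV. This split moved with the setting, since 100 of 208 genes were higher with median-ratio scaling, 163 of 411 with library weights, 72 of 255 without IOP mouse 6 and 257 of 315 without IOP‐GCV mouse 2. The 3 values of one group lay wholly above the 3 of the other in 879 genes, or 4.88%. Of these, 496 were higher with GCV (2.75% of all genes) and 383 lower (2.13%). The mean was higher with GCV for 52.8% of all genes, and the median difference was 0.01 on the log2 scale. Leaving out IOP‐GCV mouse 1 gave 1 called gene, the small nucleolar RNA gene Snora64 (named after its values were seen), listed at 0 in the 3 IOP libraries, at 0 in IOP‐GCV mouse 1, and at 124 and 139 FPKM in mice 2 and 5.

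**Figure D2:**
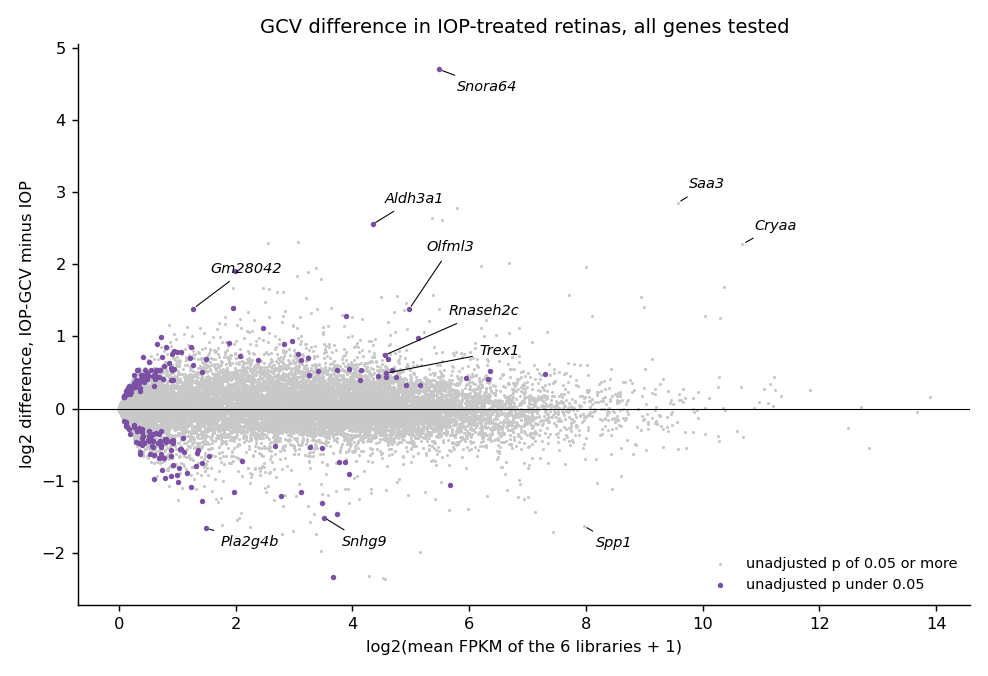
Log2 difference of IOP‐GCV minus IOP against the log2 mean level for all 18013 genes tested; each point is a gene, and purple points are the 214 genes with an unadjusted p under 0.05. No gene passed the adjusted test, and Saa3 (2.85) and Spp1 (-1.62) had a wide spread between replicates.

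How large a difference the 6 libraries could show was limited by the spread between retinas. Among 12920 genes that averaged 1 FPKM or more, the median SD on the log2 scale was 0.34 in IOP and 0.20 in IOP‐GCV retinas, against 0.12 in ctrl and 0.14 in ctrl‐GCV retinas. The 95% interval of the GCV difference reached 0.60 to either side at the median. The interval lay within 1 log2 unit in either direction, on the scale of log2(FPKM + 1), for 8707 of these genes, or 67.4%. This equals a 2-fold change in FPKM only for genes at high levels. For genes of a few FPKM a 2-fold difference in FPKM can lie inside it. In control retinas the same share was 96.4%. Across genes, the correlation of log2 levels was 0.906 to 0.911 between IOP libraries, 0.920 to 0.976 between IOP‐GCV libraries and 0.910 to 0.976 between libraries of different groups.

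The gene that the model turns on was listed at 0 or at low values in both groups. Cdkn2a was listed at 0, 0.334 and 0 FPKM in IOP mice 3, 4 and 6, and at 0.181, 0 and 0.601 FPKM in IOP‐GCV mice 1, 2 and 5. These values correspond to about 0 to 3.83 estimated fragments per library. The groups overlapped, and the control retinas lay at 0 to 0.345 FPKM. The difference was 0.17 on the log2 scale with an interval of -0.32 to 0.65, so no difference in Cdkn2a could be shown. It was -0.02 without IOP‐GCV mouse 5 and 0.32 without IOP‐GCV mouse 2. A listed 0 is not a measure of absence in this table, since Rpl26, a ribosomal protein gene that every cell uses (named after its values were seen), was listed at 0 in IOP mouse 6 and at 0.00096 FPKM in IOP mouse 4, against 4.68 to 28 FPKM in the other 4 libraries. Cdkn2b, the neighbouring gene for the inhibitor p15Ink4b (named after its values were seen), was at 1.54, 0.466 and 0.404 FPKM in IOP and 1.3, 1.06 and 4.66 FPKM in IOP‐GCV retinas. Its highest value was in IOP‐GCV mouse 5, its groups overlapped, and its log2 difference was 0.79 (-0.30 to 1.87), or 0.33 without that library. Cdkn1a, the p53 target that encodes the inhibitor p21, was at 6.64, 5.70 and 10.6 FPKM without GCV and at 7.39, 3.83 and 17.3 FPKM with it. All 6 values were above the 1.25 to 2.09 FPKM of the control retinas. The Cdkn1a difference was 0.11 (-1.11 to 1.33), and it was -0.40 without IOP‐GCV mouse 5. Trp53, which encodes p53, had a mean of 11.4 ± 1.22 FPKM (SD, n = 3) in IOP and 9.69 ± 3.14 FPKM (SD, n = 3) in IOP‐GCV retinas.

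The list of senescence and cell cycle arrest genes held 36 genes tested, of which 0 passed the adjusted test and 0 had an unadjusted p under 0.05. The mean was higher with GCV for 21 of them and lower for 15, and the median difference was 0.13 on the log2 scale, against 0.01 for all genes. The median was -0.05 without IOP‐GCV mouse 5, so its direction turned with a single library. Groups did not overlap in 3 of the 36, against 4.88% of all genes, with Hmga1 and Id1 higher and Sesn2 lower with GCV (named after their values were seen). The gene named by the rule was Sesn1, a p53 target that restrains mTOR signaling, at 41.5, 35.3 and 28.1 FPKM without GCV and 44.0, 43.2 and 41.1 FPKM with it. The highest IOP value lay inside the range of the GCV group. The interval of 23 of the 36 genes lay within 1 log2 unit in either direction. Genes near 0 FPKM meet this limit readily, because 1 is added to each value before the logarithm.

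The lists of SASP, matrix and apoptosis genes are those that the study described on these samples, with reference to earlier work, and they are not taken as independent evidence of a direction. Of 56 SASP genes listed, 51 were tested, 0 passed the adjusted test, 25 had a higher and 26 a lower mean with GCV, and the median difference was -0.00. The median ranged from -0.11 without IOP‐GCV mouse 5 to 0.06 without IOP‐GCV mouse 2. Ccl2, the chemokine that draws monocytes, was at 12.1, 10.0 and 6.52 FPKM in IOP retinas and 3.86, 4.98 and 19.2 FPKM in IOP‐GCV retinas. GCV mice 1 and 2 lay below the 3 IOP retinas and mouse 5 above them. The log2 difference of Ccl2 was -0.30 (-1.65 to 1.06), -0.93 without mouse 5 and 0.10 without mouse 1. Ccl12, a related monocyte chemokine, was at 6.75, 12.1 and 13.1 FPKM without GCV and at 4.38, 11.3 and 3.76 FPKM with it. Here GCV mice 1 and 5 were the lowest and mouse 2 lay within the IOP range, and the log2 difference was -0.72 (-1.77 to 0.32), -1.15 without mouse 2 and -0.47 without mouse 5. Il6, the cytokine most often measured as a SASP factor, was at 0 to 0.136 FPKM, which is about 1 fragment in 3 of the 6 libraries and it was listed at 0 in the other 3. Il1b, the inflammatory cytokine interleukin-1 beta, was at 2.06 to 6.62 FPKM in 5 libraries and at 40.3 FPKM in IOP‐GCV mouse 5. Timp1, an inhibitor of matrix proteases, was at 22.0, 25.7 and 9.55 FPKM in IOP retinas and 14.4, 14.4 and 64.4 FPKM in GCV retinas (Il1b and Timp1 were named after their values were seen). The member with the smallest p was Egf, epidermal growth factor, at 1.29, 0.995 and 1.25 FPKM against 0.720, 0.918 and 0.743 FPKM. It was the 1 gene of the 51 whose groups did not overlap, against 4.88% of all genes, and its unadjusted p was 0.101 in limma.

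The study's list of extracellular matrix and adhesion genes had 79 genes tested of 81, of which 0 passed the adjusted test. The mean was higher with GCV for 46 and lower for 33, and the median difference was 0.06, with -0.03 without IOP‐GCV mouse 5 and 0.17 without IOP mouse 4. Groups did not overlap in 3 of the 79, against 4.88% of all genes, with Col4a3 higher and Adamts2 and Postn lower with GCV. Adamts2 and Col4a3 were named after their values were seen. Col4a3 and Postn had an unadjusted p under 0.05 in limma. Postn, the matrix protein periostin, was at 2.57, 0.675 and 1.73 FPKM in IOP and 0.289, 0.441 and 0.571 FPKM in IOP‐GCV retinas, close to the 0.259 to 0.677 FPKM of the control retinas. Its log2 difference was -0.83 (-1.53 to -0.13) with an adjusted p of 0.988. Spp1, the secreted matrix protein osteopontin that activated microglia and macrophages make (named after its values were seen), had the largest absolute difference of this list. It was at 380, 112 and 652 FPKM without GCV and at 89.0, 50 and 208 FPKM with it. The highest GCV value lay above the lowest IOP value, and all 6 were above the 13 to 29.2 FPKM of the control retinas. The Spp1 difference was -1.62 (-3.47 to 0.22), with -2.34 to -1.07 when libraries were left out one at a time.

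In the study's list of apoptosis genes, 73 of 77 were tested and 0 passed. The mean was higher with GCV for 35 and lower for 38. The median was -0.02 (-0.06 without IOP‐GCV mouse 5 and 0.09 without IOP‐GCV mouse 2). The interval of 53 of the 73 lay within 1 log2 unit in either direction, a limit that low genes meet readily. Akt1, a kinase of survival signaling, was at 49.0, 47.4 and 46.1 FPKM without GCV and at 54.7, 54.0 and 57.9 FPKM with it. Those groups did not overlap, the log2 difference was 0.22 (-0.04 to 0.49), and the 4.88% of all genes given above is the background for 1 such gene of 73. The control groups did not overlap either, at 48.0, 45.7 and 47.0 FPKM in ctrl and 48.4, 54.7 and 51.2 FPKM in ctrl‐GCV. Abl1, one of the tyrosine kinases that dasatinib inhibits, had means of 7.70 ± 2.17 FPKM (SD, n = 3) and 8.23 ± 0.614 FPKM (SD, n = 3). In the list of 22 kinases that dasatinib inhibits, 18 had a higher mean with GCV, with a median of 0.12 that was -0.01 without IOP‐GCV mouse 5 and 0.24 without IOP‐GCV mouse 2. Its member with the smallest p, Csf1r, the receptor that keeps microglia alive, was at 11, 13.2 and 7 FPKM against 18.5, 8.07 and 52.9 FPKM, with a log2 difference of 0.94 that was 0.26 without mouse 5 and 1.55 without mouse 2.

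GCV acts on DNA synthesis, so genes of dividing cells and of DNA repair were described as separate lists. Of 40 proliferation genes, all were tested and 0 passed the adjusted test. The mean was lower with GCV for 31 and higher for 9, and the median difference was -0.20 on the log2 scale against 0.01 for all genes. The 3 GCV values lay wholly below the 3 IOP values in 9 of the 40, against 2.13% of all genes, and in 0 of them wholly above. These 9 were Ccna2, Ccnb1, Mcm5, Rrm2, Bub1, Nusap1, Tpx2, Hmmr and Prc1, which were named after their values were seen, except Tpx2. The median stayed between -0.26 and -0.10 when each library was left out in turn. In control retinas 30 of the 40 also had a lower mean with GCV. Tpx2, a spindle assembly factor and the member with the smallest p, was at 1.64, 1.25 and 1.94 FPKM in IOP retinas and at 0.827, 0.486 and 0.854 FPKM in IOP‐GCV retinas. The control retinas lay at 0.434 to 0.802 FPKM, so the GCV values were near theirs. The log2 difference of Tpx2 was -0.60 (-1.05 to -0.15), with an unadjusted p of 0.0163 and an adjusted p of 0.988 in limma.

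Ccna2, cyclin A2, was at 9.25, 10.5 and 10.5 FPKM without GCV and at 7.07, 9.12 and 7.99 FPKM with it. The gap between the groups was small, and the interval of the log2 difference, -0.71 to 0.12, held 0. The control retinas lay at 5.89 to 8.19 FPKM, and the row overlaps Exosc9, so fragments of these genes may not be fully separated. Mcm5, part of the helicase that opens DNA for replication, was at 2.77, 2.74 and 4.19 FPKM against 2.21, 2.55 and 2.35 FPKM, with a log2 difference of -0.31 (-0.87 to 0.25) that was -0.16 without IOP mouse 6. Rrm2, a subunit of the enzyme that makes deoxynucleotides, was at 1.00, 0.964 and 0.742 FPKM against 0.548, 0.721 and 0.679 FPKM. Mki67, the gene for the proliferation antigen Ki-67 (named after its values were seen), overlapped, at 1.04, 1.29 and 1.14 FPKM against 0.531, 0.528 and 1.43 FPKM. GCV mice 1 and 2 lay below the IOP retinas and mouse 5 above them, and all 6 were above the 0 to 0.132 FPKM of the control retinas. Top2a, the DNA topoisomerase of dividing cells (named after its values were seen), was at 1.02, 1.79 and 1.63 FPKM against 0.727, 0.834 and 1.1 FPKM. Of the 40 genes, 28 averaged 1 FPKM or more, and values under it rest on few fragments.

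Among 36 genes of DNA damage and replication stress, 16 had a higher and 20 a lower mean with GCV. The median was -0.05 (0.02 without IOP mouse 6). The interval of 32 of the 36 lay within 1 log2 unit in either direction, a limit that low genes meet readily. Groups did not overlap in 4 of the 36, against 4.88% of all genes, with Xrcc1 and Fanca higher and Brca2 and Ung lower with GCV (named after their values were seen). Fanca and Ung had an unadjusted p under 0.05 and averaged under 1 FPKM in both groups. Ercc1, part of an endonuclease of nucleotide excision repair, was at 18.5, 14 and 13.1 FPKM without GCV and at 17.7, 21.6 and 17.9 FPKM with it. The highest IOP value lay inside the GCV range, and the log2 difference was 0.32 (-0.11 to 0.75).

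No ganglion cell gene passed the adjusted test, and the spread between IOP retinas was wide. Pou4f1, which encodes the ganglion cell transcription factor Brn3a, was at 1.67, 10.5 and 4.88 FPKM in IOP and at 5.94, 3.80 and 2.70 FPKM in IOP‐GCV retinas. IOP mouse 4 had the highest value and IOP mouse 3 the lowest, so that the GCV retinas lay inside the IOP range, and the log2 difference was -0.18 (-1.53 to 1.16). Without IOP mouse 4 it was 0.33, and without IOP mouse 3 it was -0.73. Rbpms, an RNA‐binding protein used to count ganglion cells, was at 11.1, 36.0 and 10.1 FPKM against 22.7, 14.2 and 13.6 FPKM, with a log2 difference of 0.03 (-1.15 to 1.21) that was -0.28 without IOP mouse 6 and 0.59 without IOP mouse 4. Nefl, the light neurofilament of axons (named after its values were seen), was likewise highest in IOP mouse 4, at 34.8, 192 and 42.6 FPKM against 176, 99.8 and 59.3 FPKM. In IOP mouse 4, Slc17a6 (the glutamate transporter VGLUT2, also named after its values were seen) was at 26.5 FPKM against 3.64 and 6.31 FPKM in mice 3 and 6. Of 30 ganglion cell genes, 21 had a higher mean with GCV, the median was 0.19, and 0 had groups that did not overlap, against 4.88% of all genes. The median ranged from -0.11 without IOP mouse 3 to 0.62 without IOP mouse 4, so the direction turned with a single library. In control retinas 28 of the 30 had a higher mean with GCV, with a median of 0.36. Prph, peripherin, an intermediate filament of ganglion cell axons, had the smallest p, at 2.59, 7.15 and 2.64 FPKM against 6.28, 5.07 and 7.47 FPKM.

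Bipolar, amacrine and horizontal cells, the interneurons of the retina, gave similar counts. Of 19 bipolar cell genes 14 had a higher mean with GCV, with a median of 0.32 that ran from 0.09 without IOP mouse 3 to 0.63 without IOP‐GCV mouse 5. Of 20 amacrine and horizontal cell genes the number was 15, with a median of 0.23 that ran from -0.02 without IOP mouse 3 to 0.57 without IOP mouse 4. In control retinas 14 of the 19 and 16 of the 20 had a higher mean with GCV (medians 0.15 and 0.25). Bhlhe23, a transcription factor of rod bipolar cells, was at 3.85, 5.97 and 0.212 FPKM against 7.55, 8.58 and 3.39 FPKM. Prox1, a transcription factor of horizontal and AII amacrine cells, was at 4.35, 12.3 and 3.27 FPKM against 13.3, 7.61 and 8.60 FPKM. In both genes IOP mouse 6, the shallowest library, had the lowest value. Without it the log2 difference was 0.29 for Bhlhe23 and 0.33 for Prox1, against 1.04 and 0.65 with all 6 libraries. Summed over the list, amacrine and horizontal cell genes came to 211.3, 734.2 and 238.0 FPKM in IOP mice 3, 4 and 6 and to 581.5, 467.7 and 223.7 FPKM in IOP‐GCV mice 1, 2 and 5. The lowest sums were therefore those of mice 3, 5 and 6, from both groups.

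Photoreceptor genes showed no common direction. Of 23 rod genes 13 had a higher mean with GCV (median 0.02), and of 14 cone genes 6 did (median -0.10). Both medians turned with a single library, the rod median running from -0.20 without IOP mouse 4 to 0.16 without IOP‐GCV mouse 5 and the cone median from -0.20 without IOP mouse 4 to 0.17 without IOP mouse 6. In control retinas 0 of the 23 rod genes and 4 of the 14 cone genes had a higher mean with GCV (medians -0.18 and -0.07). Nrl, the transcription factor that sets rod identity, was at 713, 480 and 453 FPKM against 761, 908 and 530 FPKM. Rxrg, a nuclear receptor of cones, was at 3.01, 5 and 0.633 FPKM against 5.18, 6.45 and 3.26 FPKM.

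Most glial genes had a higher mean with GCV, and 0 passed the adjusted test. Of 24 genes of Mueller glia, the radial support cells of the retina, 18 had a higher mean (median 0.15, with 0.04 without IOP mouse 3 and 0.28 without IOP‐GCV mouse 5), and of 28 reactive glia genes 20 did (median 0.17, with -0.01 without IOP‐GCV mouse 5 and 0.50 without IOP‐GCV mouse 2). In control retinas 19 of the 24 and 12 of the 28 had a higher mean with GCV (medians 0.15 and -0.05). Vim, vimentin (named after its values were seen), was the 1 gene in each list whose groups did not overlap, against 4.88% of all genes, at 196, 200 and 149 FPKM against 211, 211 and 456 FPKM. Gfap, the filament protein of reactive glia, was at 87.0, 87.5 and 79.5 FPKM in IOP and at 80.1, 135 and 220 FPKM in IOP‐GCV retinas. The IOP values lay close together, GCV mouse 1 fell among them and mice 2 and 5 lay above, with a log2 difference of 0.65 (-0.20 to 1.5) that was 0.29 without mouse 5 and 1.02 without mouse 1. All 6 were above the 9.62 to 33.3 FPKM of the control retinas. Sox2, a transcription factor of Mueller glia, was at 8.14, 11.5 and 4.24 FPKM against 12.4, 15.5 and 10.6 FPKM, with a log2 difference of 0.70 (-0.12 to 1.53) that was 0.36 without IOP mouse 6. Nes, the intermediate filament nestin, was at 1.12, 1.51 and 0.881 FPKM against 1.44, 2.39 and 4.03 FPKM. Apoe, the lipid carrier and most abundant gene of the Mueller list, was at 1320, 849 and 1070 FPKM against 1710, 810 and 1600 FPKM, and its groups overlapped.

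Genes of monocytes and neutrophils mostly had higher means with GCV, and the size of the difference rested largely on IOP‐GCV mouse 5. Of 29 genes of monocytes and neutrophils tested, 26 had a higher mean, with a median of 0.71, and that median was 0.02 without mouse 5 and 1.06 without IOP‐GCV mouse 2. The list summed to 1839 FPKM in mouse 5, to 438.3 and 174.1 FPKM in IOP‐GCV mice 1 and 2, and to 221.6, 348.9 and 396.5 FPKM in the IOP mice. S100a8, a calcium‐binding protein of neutrophils, was at 267 FPKM in mouse 5 and at 11 to 91.1 FPKM in the other 5 libraries, and Lyz2, lysozyme of macrophages and neutrophils, was at 2050 FPKM in it and at 124 to 627 FPKM elsewhere (both named after their values were seen). Ccr1, a chemokine receptor of these cells, was the 1 gene of the 29 whose groups did not overlap, against 4.88% of all genes, at 1.47, 1.5 and 2.34 FPKM against 2.99, 2.40 and 6.11 FPKM. Of 17 acute‐phase genes tested 12 had a higher mean with GCV, with a median of 0.27 that was -0.04 without mouse 5 and 0.43 without IOP‐GCV mouse 2. Saa2, another serum amyloid A (named after its values were seen), was the 1 gene of the 17 whose groups did not overlap, against 4.88% of all genes. It was at 0, 0.258 and 0 FPKM against 0.280, 0.326 and 0.520 FPKM, values that rest on few fragments. Its unadjusted p was 0.0314 and its adjusted p 0.988 in limma. Of the 17 genes, 9 averaged 1 FPKM or more. Saa3 was at 17.4, 69.6 and 49.0 FPKM against 224, 24.9 and 4170 FPKM. Its log2 difference was 2.85 (-1.36 to 7.05), with 0.92 without mouse 5 and 4.59 without mouse 2.

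Microglia, the resident phagocytes, were described by lists of homeostatic and of activated genes. Of 21 homeostatic genes 13 had a higher mean with GCV (median 0.08), and of 33 activated genes 21 did (median 0.12). These medians were -0.09 and -0.41 without IOP‐GCV mouse 5, and 0.35 and 0.64 without IOP‐GCV mouse 2. C1qb, a subunit of the complement starter C1q and the most abundant homeostatic gene, was at 149, 89.5 and 236 FPKM against 169, 91.9 and 201 FPKM. Its log2 difference was -0.00 (-1.06 to 1.05), with -0.36 without IOP mouse 4 and 0.34 without IOP mouse 6. Olfml3, a secreted protein of microglia, was at 13.7, 14.6 and 15.4 FPKM in IOP and 38.6, 19.2 and 80.8 FPKM in IOP‐GCV retinas. Those groups did not overlap, and the 3 IOP retinas differed little. The log2 difference of Olfml3 was 1.38 (0.23 to 2.52), with an unadjusted p of 0.0252 and an adjusted p of 0.988 in limma, and 0.87 without mouse 5. Ccl6, a chemokine of myeloid cells, was at 15.0, 9.18 and 13.3 FPKM against 32.2, 13.5 and 57.3 FPKM. In the activated list, groups did not overlap in 2 of the 33, against 4.88% of all genes, and both were lower with GCV. Cst7, a cystatin, was at 1.22, 1.25 and 3.31 FPKM against 0.451, 0.707 and 1.12 FPKM. Igf1, insulin-like growth factor 1, was at 5.08, 3.60 and 6.25 FPKM against 3.23, 2.02 and 3.14 FPKM. Cd68, a lysosomal protein of phagocytes, overlapped, at 126, 43.6 and 293 FPKM against 67.8, 20.1 and 225 FPKM (Cst7, Igf1 and Cd68 were named after their values were seen).

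In the other lists of inflammation and antigen presentation 0 genes passed the adjusted test. Of 16 genes of MHC class II presentation 14 had a higher mean with GCV (median 0.21), and of 23 genes of MHC class I and antigen processing 16 did (median 0.22). These medians were 0.03 and -0.02 without IOP‐GCV mouse 5, and 0.61 and 0.58 without IOP‐GCV mouse 2. H2-Aa, a class II chain, was at 46.3, 37.6 and 55 FPKM against 100, 37.6 and 107 FPKM, with GCV mouse 2 at the level of the lowest IOP retina. H2-T23, a nonclassical class I molecule, was at 20.2, 13.9 and 14.4 FPKM against 29.5, 17.3 and 34.6 FPKM. B2m, the light chain of class I (named after its values were seen), ranged from 427 FPKM in IOP‐GCV mouse 2 to 2450 FPKM in IOP mouse 6. Of 55 interferon response genes 39 had a higher mean with GCV (median 0.14, with -0.16 without IOP‐GCV mouse 5 and 0.32 without IOP‐GCV mouse 2). The member with the smallest p, Ifi44, went the other way, at 2.34, 1.96 and 2.73 FPKM against 1.16, 0.530 and 1.87 FPKM. Of 26 complement genes 16 had a higher mean (median 0.11, and 0.03 without IOP mouse 4). Cfb, factor B of the alternative pathway, was at 8.35, 5.05 and 5.70 FPKM against 19.7, 4.11 and 37.9 FPKM. Of 38 chemokines and receptors 24 had a higher mean (median 0.16), and of 37 genes of interleukin-6 and interleukin-1 signaling 29 did (median 0.12). These medians were 0.01 and -0.04 without IOP‐GCV mouse 5, and 0.34 and 0.23 without IOP‐GCV mouse 2. Clcf1, a ligand of the interleukin-6 family, was at 1.35, 1.21 and 0 FPKM against 1.61, 1.32 and 3.03 FPKM. Of 25 lymphocyte genes 12 had a higher mean (median -0.00). Only 2 of the 25 averaged 1 FPKM or more, and differences of low genes are understated on this scale. Ccl5, a chemokine of T cells, was at 8.55, 14.7 and 5.30 FPKM against 29.7, 4.75 and 31.1 FPKM.

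**Figure D3:**
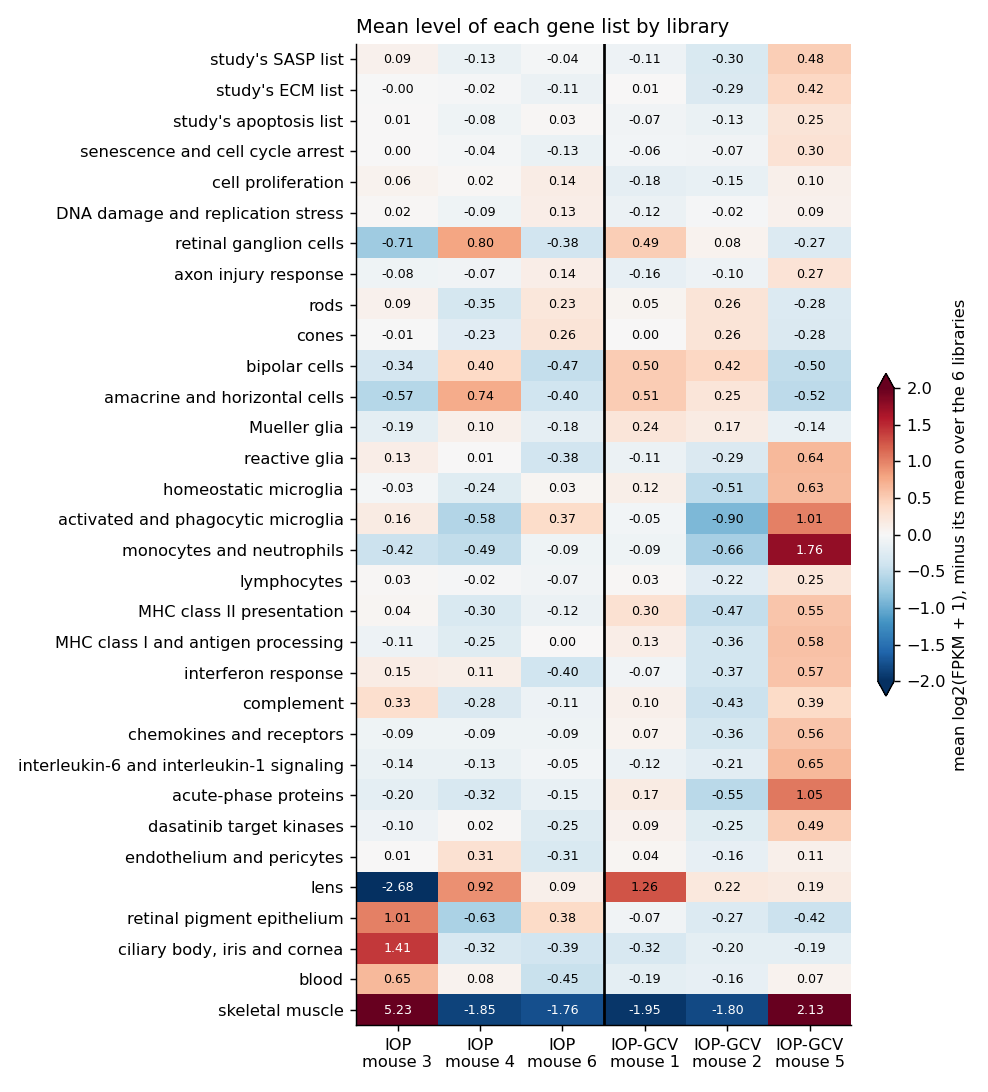
Mean log2(FPKM + 1) of the genes of each of 32 lists in the 6 IOP‐treated retinas, each row centred on its own mean over these libraries; red is above and blue below that mean, and colours end at 2. Immune lists are highest in IOP‐GCV mouse 5 and low in IOP‐GCV mouse 2, lists of inner retinal neurons are highest in IOP mouse 4 or IOP‐GCV mouse 1, and IOP mouse 3 stands apart in lens, pigment epithelium, anterior eye and muscle.

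Lists of vessels, injured axons and neighbouring tissues had these values. Of 28 genes of endothelium and pericytes 10 had a higher mean with GCV (median -0.06, with -0.22 without IOP mouse 6 and 0.08 without IOP mouse 4). Slc2a1, the glucose transporter of the blood‐retina barrier, was at 121, 83.2 and 92.6 FPKM against 125, 107 and 120 FPKM. Of 26 genes of the axon injury response 14 had a higher mean (median 0.02, with -0.08 without IOP‐GCV mouse 5 and 0.14 without IOP‐GCV mouse 1), and its member with the smallest p, the immediate early factor Fosb, was at 5.24, 3.89 and 7.06 FPKM against 1.90, 3.38 and 4.35 FPKM. Of 24 lens genes 23 had a higher mean, with a median of 1.25 that was -0.14 without IOP mouse 3 and 2.04 without IOP mouse 4. In control retinas 23 of 23 had a higher mean with GCV, with a median of 1.64, and the list summed to 9599 FPKM in ctrl‐GCV mouse 1 against 79.73 to 234.4 FPKM in the other 5. Crygn, gamma N crystallin, was at 1.14, 0.783 and 0 FPKM against 1.42, 1.32 and 1.32 FPKM. Of 18 genes of the retinal pigment epithelium 15 had a lower mean (median -0.47, with -0.18 without IOP mouse 3 and -0.79 without IOP mouse 4). Dct, an enzyme of melanin synthesis, was at 154, 6.86 and 132 FPKM against 52.4, 18.4 and 7.55 FPKM, and Ttr, the thyroxine carrier transthyretin, was at 111, 39.7 and 55.6 FPKM against 20.2, 31.5 and 40.1 FPKM. Best1, a chloride channel of the pigment epithelium (named after its values were seen), was the 1 gene of the 18 whose groups did not overlap, against 4.88% of all genes, and it was higher with GCV, at 0.263, 0.298 and 0 FPKM against 0.384, 0.606 and 0.417 FPKM. Of 23 genes of ciliary body, iris and cornea 19 had a lower mean (median -0.55, with 0.03 without IOP mouse 3 and -0.91 without IOP mouse 6). Aldh3a1, a corneal aldehyde dehydrogenase, went the other way, at 19, 1.52 and 1.04 FPKM against 27.9, 11.9 and 54.6 FPKM. Of 12 blood genes 8 had a lower mean (median -0.02), with the haemoglobin gene Hbb-bt at 26.1, 13.1 and 6.82 FPKM against 5.62, 5.30 and 3.73 FPKM and Hbb-b1 at 378, 156 and 15.7 FPKM against 40.9, 69.6 and 36.7 FPKM. Hbb-bt and Hbb-b1 are near-identical copies, and how fragments were split between them is uncertain.

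Among the higher genes with the smallest p, Trex1 and Rnaseh2c had the highest levels. Trex1, the main exonuclease of cytosolic DNA, was at 18.8, 18.9 and 18.8 FPKM in the 3 IOP retinas and at 27.8, 26.8 and 26.1 FPKM in the 3 IOP‐GCV retinas. The gap between the groups was far wider than either spread, and the control retinas lay at 16.5 to 21.1 FPKM with or without GCV. The log2 difference of Trex1 was 0.49 (0.22 to 0.76), which is 1.4-fold, with an unadjusted p of 0.0042 and an adjusted p of 0.988 in limma. It was 0.47 to 0.51 when libraries were left out one at a time. Trex1 lies inside a locus that also gives a joint transcript with Atrip, its neighbour, and how fragments were divided between the genes is not known. Atrip (named after its values were seen) was at 10.1, 9.31 and 4.97 FPKM against 8.91, 11.5 and 9.90 FPKM. Rnaseh2c, a subunit of ribonuclease H2, was at 19.8, 14.8 and 15.2 FPKM without GCV and at 30.5, 30.1 and 24.3 FPKM with it. The GCV values were above the IOP values in all 3 retinas, while the control retinas spread over 15.0 to 26.1 FPKM. The log2 difference of Rnaseh2c was 0.74 (0.33 to 1.15), with an unadjusted p of 0.0043 and an adjusted p of 0.988 in limma.

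Pla2g4b, a cytosolic phospholipase A2, had the smallest p of the genes lower with GCV. It was at 3.55, 2.42 and 3.79 FPKM in IOP and at 0.216, 0.928 and 0.017 FPKM in IOP‐GCV retinas, against 1.85 to 2.67 FPKM in control retinas. The log2 difference was -1.66 (-2.36 to -0.95), with an unadjusted p of 0.00108 and an adjusted p of 0.988 in limma. Gm28042, the row of a transcript that reads through from Jmjd7 into Pla2g4b and shares its exons, had the opposite pattern, at 0, 1.24 and 0 FPKM against 2.31, 2.77 and 2.18 FPKM. Summed over both rows, the level was 3.55, 3.65 and 3.79 FPKM against 2.52, 3.70 and 2.20 FPKM. The groups then overlapped, and p was 0.3 in a two-sided exact permutation test, where 0.1 is the smallest p that 3 against 3 allows. How fragments were divided between the overlapping rows is not known.

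Apart from Snhg9, the other genes named by the smallest p were low. Hist1h2ae, a histone H2A gene with near-identical copies, was at 0, 0.292 and 0 FPKM against 1.59, 1.11 and 0.886 FPKM, and its unadjusted p of 0.000949 was the smallest of all genes. Grp, gastrin‐releasing peptide, was at 0.516, 0.784 and 0 FPKM against 1.35, 1.19 and 1.73 FPKM, and the unnamed gene 4930455G09Rik was at 0, 0.247 and 0 FPKM against 0.805, 0.625 and 1.74 FPKM. Lower with GCV were Ecscr, an endothelial surface protein, at 1.20, 2.90 and 2.62 FPKM against 0.391, 0.460 and 0.606 FPKM, and Gimap6, a GTPase of immune cells, at 1.22, 1.19 and 1.03 FPKM against 0.595, 0.502 and 0.632 FPKM. For Ecscr the GCV values lay inside the 0 to 0.683 FPKM of the control retinas, and for Gimap6 above their 0.0899 to 0.356 FPKM. Atp5l, a subunit of ATP synthase with several copies in the genome, was at 1.80, 0.989 and 2.09 FPKM against 0.360, 0.416 and 0.334 FPKM. Gm21992, which spans Rbm4 and Rbm14, was at 1.63, 0.532 and 0.903 FPKM and was listed at 0 in the 3 GCV retinas. Snhg9, a host gene of small nucleolar RNA that lies antisense within Rps2, was at 15.3, 7.74 and 25.9 FPKM against 4.63, 4.61 and 4.28 FPKM, inside the 0 to 24 FPKM of the control retinas. Fragments of Snhg9 and Rps2, and of Gm21992 and the genes it spans, may not be fully separated, since the sources used here do not say whether strand was used in counting.

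**Figure D4:**
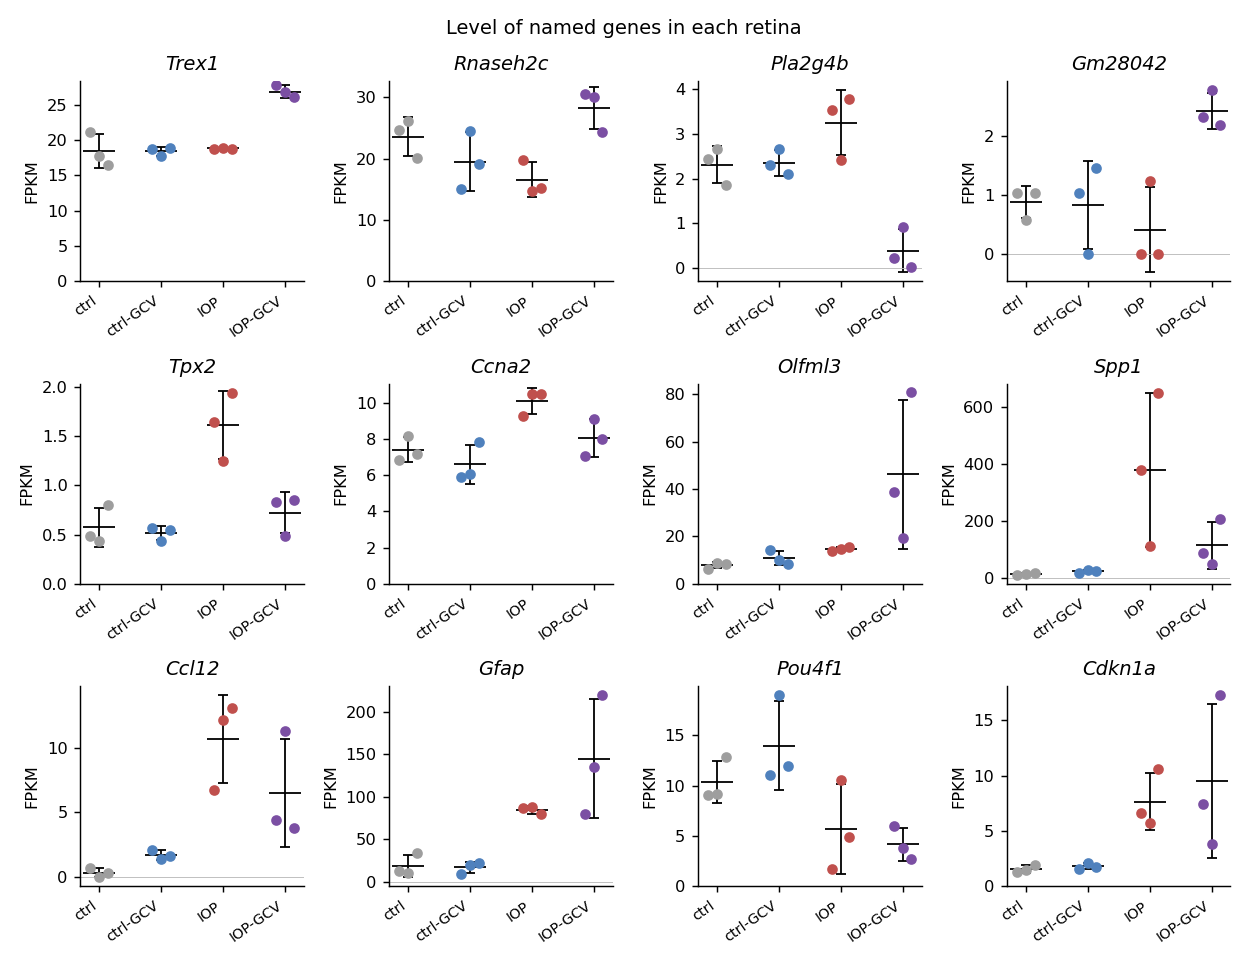
Level in FPKM of 12 named genes in each of the 12 retinas by group; points are retinas, and bars give the mean and SD of 3. Trex1 separates IOP‐GCV (26.1 to 27.8) from every other retina, Pla2g4b and its readthrough row Gm28042 mirror each other, and Spp1, Gfap, Pou4f1 and Cdkn1a spread widely within the injured groups.

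The same contrast was made in the control eyes, which came from the same transgenic mice. In ctrl‐GCV against ctrl retinas, 1 gene of 17843 passed the adjusted test, or 0.0056%. It was Rsc1a1, a regulator of transport proteins (named after its values were seen), whose row overlaps Ddi2, at 1.77 to 2.41 FPKM in ctrl and 0.000492 to 0.0379 FPKM in ctrl‐GCV retinas, with an adjusted p of 0.0307 in limma. The call was lost with the filter at 1 FPKM, where the adjusted p was 0.12, and when any of 5 of the 6 control libraries was left out. How fragments were divided between Rsc1a1 and Ddi2 is not known. In injured retinas Rsc1a1 was at 6.05, 0.0503 and 1.21 FPKM without GCV and at 1.88, 3.24 and 1.54 FPKM with it, with overlap. At an unadjusted p under 0.05 there were 1147 genes in control retinas, or 6.43%, and groups did not overlap in 2064, or 11.6%. These larger counts came with the narrower spread given above and do not show that GCV differed in effect between injured and control eyes.

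That question was tested by the difference between the GCV effects, over all 12 libraries. No gene of 18509 passed the adjusted test, which is 0.0%, the smallest adjusted p was 0.997, and 358 genes, or 1.93%, had an unadjusted p under 0.05. Of the genes with an unadjusted p under 0.05 in injured retinas, 94 also had one here, but both tests share the 6 injured libraries. Leaving out IOP mouse 3 gave 1 called gene for the difference between the effects, and leaving out IOP‐GCV mouse 1 gave 2. For Pla2g4b, whose injured groups overlapped once the row of its readthrough transcript was added, the difference between the effects was -1.68 (-2.43 to -0.93) on the log2 scale, with GCV and sham values that overlapped in control retinas, where the log2 difference was 0.02. For Trex1 it was 0.49 (0.20 to 0.78), with 0.00 in control retinas, and for Tpx2 it was -0.55 (-0.98 to -0.11), with -0.05 in control retinas. For Ccl12 it was -1.76 (-2.93 to -0.60). In control retinas this chemokine was at 0.703, 0 and 0.310 FPKM in ctrl and at 2.12, 1.41 and 1.58 FPKM in ctrl‐GCV, a log2 difference of 1.04 (0.55 to 1.53) in the direction opposite to that in injured retinas. For Spp1 it was -2.19 (-4.14 to -0.24), with control retinas at 13, 15.7 and 19.2 FPKM in ctrl and 17.3, 29.2 and 26.8 FPKM in ctrl‐GCV. The adjusted p was 0.997 for each of these 5 genes in limma. Pla2g4b, Trex1 and Tpx2 were named for small p in the injured libraries, and Spp1 after its values were seen. This test reuses those libraries, so intervals that leave out 0 are a description only.

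**Figure D5:**
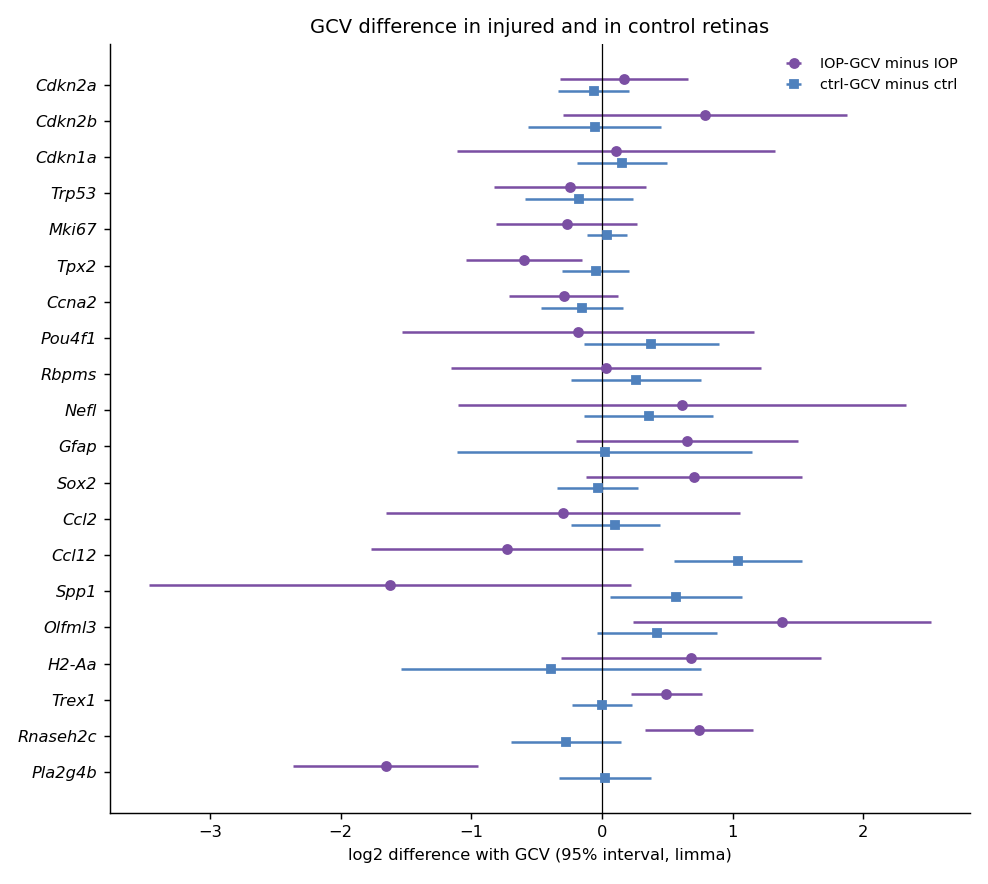
Log2 difference with GCV and its 95% interval for 20 named genes, in injured retinas (purple circles, IOP‐GCV minus IOP) and in control retinas (blue squares, ctrl‐GCV minus ctrl), 3 retinas a group. Intervals are wider in injured retinas for most genes, and those of Tpx2, Olfml3, Trex1, Rnaseh2c and Pla2g4b leave out 0 there, with an adjusted p of 0.988 for each.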

How the data were processed

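RNA of both retinas of 6 mice was sequenced from stranded mRNA libraries as paired reads. Read pairs were assigned by the authors to exons of RefSeq genes, per their methods, and the submitters' notes name TopHat2, Bowtie2, Cufflinks, Cuffdiff and mm10. The table as deposited holds FPKM for 24340 rows, 5831 of them at 0 in all libraries and 27 with names turned into dates. No source names the unit, which was read off the values, and which step made it is not given in the sources used here. Depth was estimated from the spacing of low values in genes of at least 1500 bases.

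Values were analysed as log2(FPKM + 1), which understates differences of low genes, with limma 3.58.1 in R 4.3.3, with Benjamini-Hochberg adjustment at 0.05 and a trend of the variance. The main fit held the 6 IOP‐treated libraries. Intervals are 95%. The control contrast and the difference of effects were fitted likewise, the latter over 12 libraries. Retinas are from separate mice within a group. The eyes of a mouse are paired by the animal, with deviations from the group means that correlated at -0.12 to 0.39.

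Genes named were markers of the model and the study, the 6 higher and 6 lower genes with the smallest p, 1 FPKM or more on average in either group and no overlap, the gene of each list with the smallest p among those averaging 1 FPKM or more in either group, and the most abundant gene of certain cell type and tissue lists. Values of withheld items are left out. Members, lists and this rule were chosen with earlier results of these data known, and the muscle list after the values were seen. The alternatives tried were all 12 libraries, the mouse as a block, median-ratio scaling, quantile normalization, library weights, 0.1 as the pseudocount, only genes with 1 FPKM or more in 3 libraries, and each library left out. No columns held comparisons of the authors. Tables and figures were made with matplotlib 3.10.9, numpy 2.4.6 and pandas 2.3.3 under Python 3.11.15.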

Additional observations from a re-analysis of the deposited data

Results flagged for a closer look

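In 3 of the 68 named genes, the injured eye minus the control eye of the same mouse had opposite signs in the 2 groups. It was below 0 in all 3 mice without GCV and above 0 in all 3 mice with it. For Rnaseh2c these eye differences were -0.30, -0.78 and -0.38 on the log2 scale in mice 3, 4 and 6 and 0.98, 0.29 and 0.33 in mice 1, 2 and 5. The difference between the GCV effects was 1.016 (0.44 to 1.59), with an unadjusted p of 0.00274 and an adjusted p of 0.997 in limma. For Sox2 it was 0.7341 (-0.13 to 1.6), and for Slc2a1 it was 0.5018 (-0.02 to 1.03), each with an adjusted p of 0.997. Mouse 5 was close to 0 for Sox2, at 0.02, and mouse 3 for Slc2a1, at -0.01. The named genes were partly chosen for small p in the same libraries, so these directions are a description. No share over all genes is given for this pattern, so the count has no background to be set against.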

How the results depend on the processing

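The count of 0 genes at an adjusted p under 0.05 in injured retinas was 0 under each of 17 alternatives except 1, the fit without IOP‐GCV mouse 1, so leaving out a library gave 0 to 1. The count at an unadjusted p under 0.05, 214 in the report, was 80 with the filter at 1 FPKM, 774 with all 12 libraries, 411 with library weights and 148 to 811 with each library left out. With the alternatives added after seeing the data it was 462 with Xist as a term, 389 without both libraries with muscle transcripts and 325 without both with Xist. With the mouse as a replicate block the counts were 0 and 771 in injured retinas and 0 for the difference of the effects, and the block changed no call. Leaving out an injured library gave 0 to 2 called genes for the difference of the effects, where IOP mouse 3 and IOP‐GCV mouse 1 were the libraries that gave 1 and 2. No control library was left out of that test. In control retinas the filter gave 0 for the 1 called gene, and leaving out a control library gave 0 to 4, with 4 without ctrl mouse 4 and 0 without each of the other 5.

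Of 68 named genes, 59 kept their sign throughout. Leaving out a library turned Cdkn2a (-0.0189 to 0.32), Cdkn1a (-0.40 to 0.56), Pou4f1 (-0.73 to 0.33), Rbpms (-0.28 to 0.59), Ccl2 (-0.93 to 0.10), Abl1 (-0.11 to 0.25), C1qb (-0.36 to 0.34) and Rsc1a1 (-0.33 to 1.04). Without both muscle libraries the log2 difference was -0.0882 for Cdkn2a, -0.47 for Cdkn1a, -0.0934 for Rbpms and 0.0883 for Hbb-b1. Without both Xist libraries it was -0.0882 for Cdkn2a, -0.17 for Cdkn1a, 0.059 for Pou4f1, -0.16 for Rbpms, -0.13 for Abl1 and 0.11 for C1qb. Quantile normalization gave -0.0343 for Rbpms and 0.0437 for C1qb, and library weights gave 0.24 for Pou4f1 and 0.17 for C1qb. The cause of these turns was not tested. Depth limits genes under about 1 FPKM, Cdkn2a and Il6 among them.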
